A study of Homo sapiens with 20 samples.

Results

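The 10 genes described here encode sororin (CDCA5) and cohesin with factors that hold, acetylate or release it: SMC1A, SMC3, RAD21, STAG1, STAG2, WAPL, PDS5A, PDS5B and ESCO2. They are 10 of 18417 genes measured in MDA-MB-231, a human breast cancer line of the triple-negative type, and were chosen by name and selected on measured log2 values of these arrays, because CDCA5 was higher than Control under every treatment. All 10 had exactly 1 transcript cluster with a single gene symbol, so every one of them enters the results, and no filter on low values was used. Cells carried no genetic change made for the study and received 36 µM cisplatin with 10 µM TM (ammonium tetrathiomolybdate, a copper chelator), cisplatin alone or TM alone. The groups are Cis/TM 24 h, Cis/TM 12 h, Cis 24 h, Cis 12 h, TM 24 h and Control with 3 arrays each, and TM 12 h with 2, which makes 20 Affymetrix Human Gene 1.0 ST arrays. The 3 Control arrays, untreated by the series text and given vehicle by the methods, carry no time in their labels and serve both times. The methods describe treatment in triplicate in multi-well plates but do not say that the wells were independent cultures. The p-values therefore measure the spread between arrays, which may be technical.

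Cohesin is a ring of SMC1A, SMC3 and RAD21 to which STAG1 or STAG2 binds, and it holds sister chromatids together between DNA replication and mitosis. PDS5A or PDS5B sits on the ring, and with them WAPL opens it so that cohesin leaves DNA. ESCO1 and ESCO2 acetylate SMC3, and sororin then binds PDS5 and blocks WAPL, which makes cohesion last until mitosis. Sororin is a protein of proliferating cells, and its gene is among those whose transcription follows the cell cycle.

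The log2 values carry the authors' RMA normalization and no measure of background for each cluster, so whether the low CDCA5 values of Control lay above background cannot be told, and the level of a cohesin gene is set only against the same gene in other groups. A gene counts as called where limma's adjusted p is under 0.05 and its fold is over 1.5. Because the genes were chosen with the comparisons with Control in view, those comparisons are a description without a p. For these genes a call against Control marks a value past the threshold and is no test. The comparisons among treated groups were not the ground on which the genes were chosen, and are tested over all 18417 genes. Earlier results of these data were, however, known at the time of that choice. In bulk RNA, fewer cells of a cell cycle phase and less RNA per cell cannot be told apart. Array medians lay between 5.71 and 5.94, with Control at 5.77, 5.76 and 5.71. Upper quartiles were 7.43, 7.51 and 7.50 in Control, and from 7.51 (TM 24 h A) to 7.80 (Cis 24 h A) in treated arrays. Over all genes the difference from Control rose with mean level, with Spearman's rank correlation from 0.23 (Cis 12 h) to 0.50 (TM 12 h). In TM 12 h limma called 2229 genes, and 1641 after quantile normalization. The part of this trend in the differences from Control was not tested. On the second principal component, 1 array of Cis 12 h and 1 of TM 24 h, both lettered A, stood away from their groups, and results that rest on them are given with and without them. As a rough check of the cell line by percentile of mean level among all genes, the 6 markers of the line (VIM, CD44, EGFR, CAV1, MSN, LGALS1) lay between 79.4 and 99.5. Of 7 luminal or epithelial markers, CDH1, ESR1 and PGR lay between 9.44 and 16.6, ERBB2 and GATA3 at 53.5 and 52.8 and EPCAM and KRT8 at 81.2 and 79.1, so that list did not lie low as a whole. The 4 fibroblast markers lay between 2.03 (LUM) and 58.1 (COL1A1), and the 3 measured leukocyte markers between 2.12 (PTPRC) and 27.5 (CD14).

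CDCA5 lies on the minus strand of chromosome 11, head to head with ZFPL1, which encodes a zinc finger protein of the Golgi. The 181 bases between the 2 start sites, chr11:65084041-65084221 in GRCh38.p14 (RefSeq), are shown because both genes start from them and were measured. They are written toward the CDCA5 start, and the capitals mark first an E2F form (TTTNNCGC) that begins 45 bases before that start and then a form of the cell cycle homology region (TTCGAA) that begins 26 bases before it.
CDCA5 upstream: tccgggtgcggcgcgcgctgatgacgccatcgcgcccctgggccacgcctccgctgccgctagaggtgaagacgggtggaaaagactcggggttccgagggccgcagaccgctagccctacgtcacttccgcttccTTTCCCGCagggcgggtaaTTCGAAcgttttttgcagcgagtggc
Over the 250 bases before the start of all 35116 RefSeq promoters, either strand, TTCGAA occurs in 1.19% and TTTNNCGC in 5.92%, while CCAAT occurs in 32% and TTTGAA in 13.3%. The CDCA5 window held the first pair and neither of the others. TTCGAA occurred in no window of SMC1A, SMC3, STAG1, STAG2, WAPL, PDS5A or PDS5B, and TTTNNCGC in the STAG1 window, in 1 of 2 windows of SMC1A and in 2 of 3 of STAG2. A match is a description of letters and not a site of binding.

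CDCA5 was also one of the genes for which the study ordered small interfering RNAs, and its 4 sequences are shown as the reagents that exist against the gene that changed under every treatment. The knockdown itself was not measured on these arrays, and the strand of each is not stated.
CDCA5 siRNA 1: cagaaagcccaucgucuua
CDCA5 siRNA 2: cgcaggagcccuaggauuu
CDCA5 siRNA 3: gcaguuugaucuccugguu
CDCA5 siRNA 4: gccagagacuuggaaaugu

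All 17 treated arrays had more CDCA5 than any Control array. In log2 values, Cis/TM 24 h had 7.29, 7.14 and 7.22, Cis/TM 12 h had 8.46, 8.10 and 8.20, Cis 24 h had 8.23, 8.11 and 7.84, and Cis 12 h had 7.91, 8.43 and 8.08. TM 24 h had 7.10, 7.36 and 7.54 and TM 12 h had 7.95 and 7.90, against 5.49, 6.42 and 5.22 in Control. Control B was the highest of the Control arrays, and the Control SD of 0.63 was the largest of the 7 groups for this gene. Against Control this was a difference of 1.51 for Cis/TM 24 h, 2.55 for Cis/TM 12 h, 2.35 for Cis 24 h, 2.43 for Cis 12 h and 1.62 for TM 24 h, each with a standard error of 0.22, and of 2.21 for TM 12 h with a standard error of 0.24. These are folds from 2.84 to 5.84. Among all 18417 genes the difference ranked 4th from the top with TM 12 h, 5th with Cis 24 h, 8th with TM 24 h and with Cis/TM 24 h, 19th with Cis/TM 12 h and 32nd with Cis 12 h.

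**Figure D1:**
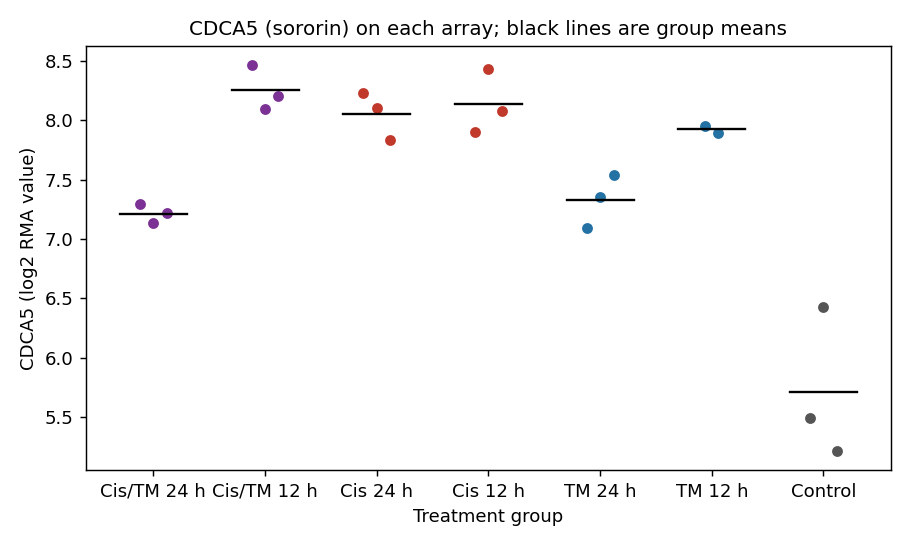
CDCA5 log2 value (vertical axis) on each of the 20 arrays (points) by treatment group (horizontal axis), with the group mean as a black line. Every treated array lies above the highest Control array, at 6.42, and the Cis/TM 24 h and TM 24 h arrays lie below those of the other 4 treated groups.

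From high to low, CDCA5 averaged 8.26 with Cis/TM 12 h, 8.14 with Cis 12 h, 8.06 with Cis 24 h, 7.92 with TM 12 h, 7.33 with TM 24 h, 7.22 with Cis/TM 24 h and 5.71 in Control. Neighbours among the first 4 groups overlapped in their arrays, as did TM 24 h with Cis/TM 24 h. Between TM 24 h and TM 12 h the arrays did not overlap, but the log2 difference of −0.59 (95% interval −1.10 to −0.08) had an adjusted p of 0.823 by limma.

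With the combination, CDCA5 was lower at 24 h than at 12 h, with a difference of −1.04 (limma, adjusted p = 0.0011, standard error 0.22). With cisplatin alone the difference was −0.08 (95% interval −0.54 to 0.38, adjusted p = 0.848). The difference between these time courses was −0.96 (95% interval −1.60 to −0.31), with an adjusted p of 0.261, so it did not pass the threshold. At 24 h CDCA5 was lower in Cis/TM than in Cis by −0.84 (standard error 0.22, adjusted p = 0.038), and higher in Cis than in TM by 0.73 (standard error 0.22, adjusted p = 0.0244). Both calls sit at the edge. The first was lost after median centring, quantile normalization or removal of the trend with level, and without any 1 of 8 arrays (Cis/TM 24 h A, B or C, Cis/TM 12 h C, Cis 24 h A or B, TM 12 h A or B), with adjusted p from 0.0511 to 0.184. The second was lost after quantile normalization or removal of the trend, and without Cis 24 h A, Cis 24 h B, TM 24 h A or TM 24 h B, with adjusted p from 0.0567 to 0.107. At 12 h the differences of CDCA5 were small: 0.12 for Cis/TM against Cis (95% interval −0.34 to 0.57), 0.33 for Cis/TM against TM (−0.18 to 0.84) and 0.22 for Cis against TM (−0.30 to 0.73), with adjusted p from 0.446 to 0.912.

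The value under both drugs fell short of the sum of the single drugs. The effect of Cis/TM less the effects of Cis and of TM, which is 0 where log2 effects add up, was −2.46 at 24 h (standard error 0.31) and −2.10 at 12 h (standard error 0.33) for CDCA5. This quantity uses the Control values by which CDCA5 was chosen, so it has no test.

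Of the 6 genes nearest to CDCA5 in the gene table, 5 were measured. ZFPL1, which shares the printed stretch, rose over Control by 1.25 with Cis/TM 12 h, 0.77 with Cis 24 h and 1.38 with Cis 12 h (standard error 0.12 each; adjusted p = 9.7e-08, 7.2e-05 and 2.2e-08). It was not called in Cis/TM 24 h (0.03, adjusted p = 0.91), TM 24 h (0.20, adjusted p = 0.28) or TM 12 h (0.55, adjusted p = 0.0059 with a fold under 1.5). SAC3D1, NAALADL1, CATSPERH and VPS51 were called in no comparison with Control. Of CDCA5 and the 5 measured neighbours, only CDCA5 was called under TM. VPS51 lay above Control in every treated group, by 0.44 in Cis 12 h and 0.46 in TM 12 h (limma, adjusted p = 0.015 and 0.04, folds under 1.5). NAALADL1 lay below Control in every treated group, with adjusted p from 0.073 to 0.64. Whether the region moved together was not tested. The 11q13 genes of the siRNA library are a wider list from the same region, and 10 of 11 were measured. Of these 10, 3 rose with Cis/TM 24 h (4.54% of all genes called higher), 6 with Cis/TM 12 h (15.2%) and 5 with Cis 24 h (11.5%). With Cis 12 h 6 rose (14.8%), with TM 24 h 3 (5.16%) and with TM 12 h 4 (8.99%), and none was called lower. UCP2, a mitochondrial carrier protein, GSTP1, a glutathione transferase, and KAT5, a histone acetyltransferase, were called in all 6, with UCP2 between 1.16 in Cis/TM 24 h and 1.77 in TM 12 h. The study took these genes from a region of genomic gain linked to cisplatin resistance, and CDCA5, also of that library, is left out of the counts.

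The genes whose pattern was most like that of CDCA5, by Pearson's r over the 20 arrays, were ARHGAP1 (0.987), RFC2 (0.980), MICB (0.979), MCM7 (0.979), DMAC2 (0.976), AP3M2 (0.974), ATP6V0D1 (0.974), AUP1 (0.972), NR2C2AP (0.972) and KAT5 (0.971). RFC2 is a subunit of the replication clamp loader and MCM7 one of the replicative helicase. The arrays share 3 Controls that lie low for all of them, and 364 genes had an r over 0.9, so the likeness is a description. No cohesin gene was among them. Over the 20 arrays r with CDCA5 was 0.23 for ESCO2, 0.14 for SMC1A, −0.24 for SMC3, −0.34 for STAG2, −0.43 for RAD21, −0.48 for WAPL, −0.55 for PDS5B, −0.61 for STAG1 and −0.62 for PDS5A.

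The accessory subunits behaved in the opposite way under cisplatin at 12 h. STAG1, one of the alternative subunits that help cohesin bind DNA, had log2 values of 8.66, 8.58 and 8.54 with Cis/TM 24 h, 7.08, 7.02 and 7.18 with Cis/TM 12 h, 8.08, 8.23 and 7.97 with Cis 24 h and 6.13, 6.96 and 6.87 with Cis 12 h. TM 24 h had 9.35, 9.35 and 9.40 and TM 12 h had 9.51 and 9.31, against 9.37, 9.02 and 9.44 in Control. All 12 arrays with cisplatin lay below all Control arrays, and the TM arrays lay among or beside them. In Cis 12 h the difference from Control was −2.62 (standard error 0.16), 6.15-fold lower, and only 8 genes of 18417 had a lower difference. The difference was −0.68 for Cis/TM 24 h, −2.18 for Cis/TM 12 h and −1.18 for Cis 24 h, so that STAG1 alone of the 10 genes was called lower than Control in all 4 groups with cisplatin.

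STAG2, the other alternative subunit and a tumour suppressor gene, had 8.59, 8.51 and 8.53 with Cis/TM 24 h, 7.48, 7.54 and 7.53 with Cis/TM 12 h, 8.53, 8.38 and 8.45 with Cis 24 h and 6.39, 7.24 and 7.39 with Cis 12 h. It had 8.39, 8.75 and 8.80 in TM 24 h and 8.76 and 8.58 in TM 12 h, against 8.26, 8.01 and 8.48 in Control. The 6 arrays with cisplatin for 12 h lay below every other array, and no array of the other treated groups lay below the Control range. The difference of STAG2 from Control was −0.73 for Cis/TM 12 h and −1.24 for Cis 12 h, and 0.29 for Cis/TM 24 h and 0.21 for Cis 24 h (standard error 0.18 each).

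PDS5A and PDS5B, the paralogous HEAT-repeat proteins through which WAPL and sororin act, moved together. PDS5B had 8.70, 8.74 and 8.67 with Cis/TM 24 h, 7.35, 7.35 and 7.30 with Cis/TM 12 h, 8.31, 8.29 and 8.32 with Cis 24 h and 6.32, 7.03 and 6.99 with Cis 12 h. It had 8.53, 8.67 and 8.66 in TM 24 h and 8.75 and 8.66 in TM 12 h, against 8.57, 8.49 and 8.88 in Control. Only arrays with cisplatin lay below the Control range, those of 12 h far below it and those of Cis 24 h just under it, while those of Cis/TM 24 h lay inside. PDS5B differed from Control by −1.31 in Cis/TM 12 h and −1.87 in Cis 12 h (standard error 0.14 each).

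PDS5A had 9.40, 9.45 and 9.50 with Cis/TM 24 h, 8.45, 8.63 and 8.54 with Cis/TM 12 h, 9.31, 9.15 and 9.21 with Cis 24 h and 7.83, 8.29 and 8.11 with Cis 12 h. It had 9.35, 9.39 and 9.42 in TM 24 h and 9.32 and 9.32 in TM 12 h, against 9.56, 9.47 and 9.65 in Control. Again the arrays with cisplatin at 12 h lay lowest, with differences from Control of −1.02 in Cis/TM and −1.48 in Cis (standard error 0.10 each). The r of PDS5A with PDS5B over the 20 arrays was 0.984, the highest of the 45 pairs, followed by STAG2 with PDS5B at 0.959.

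WAPL, the factor that opens the ring, averaged 10.36 with Cis/TM 24 h, 10.13 with Cis/TM 12 h, 10.34 with Cis 24 h, 9.88 with Cis 12 h, 10.46 with TM 24 h and 10.51 with TM 12 h, against 10.45 in Control, with SDs from 0.01 to 0.12. Its difference from Control in Cis 12 h was −0.57 (standard error 0.09), 1.48-fold lower and so just under the fold limit, while STAG1 in Cis/TM 24 h, at 1.61-fold lower, was the nearest beyond it. All 3 Cis 12 h arrays of WAPL, at 9.75, 9.91 and 9.98, lay below every other array.

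**Figure D2:**
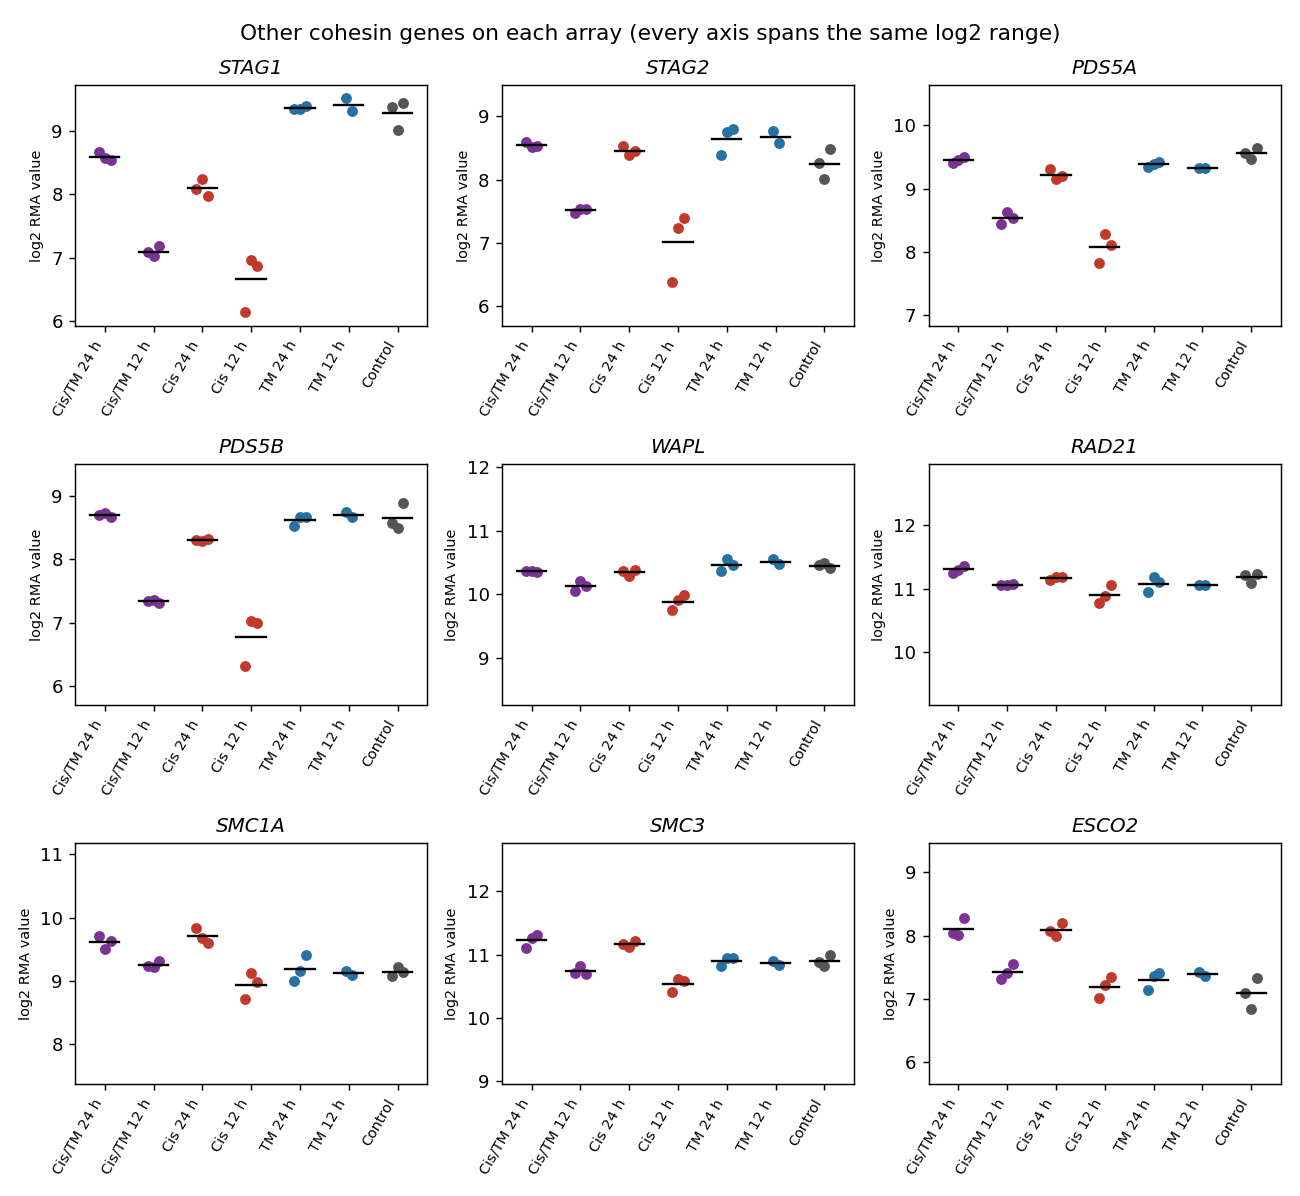
Log2 value (vertical axes, all spanning the same range) of the 9 other cohesin genes on each array (points) by treatment group (horizontal axes), with group means as black lines. STAG1, STAG2, PDS5A and PDS5B are lowest in Cis 12 h, with means of 6.66, 7.01, 8.08 and 6.78, and ESCO2 is highest in Cis/TM 24 h and Cis 24 h, with 8.11 and 8.09.

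The core ring was next. RAD21, the subunit that separase cuts, had means from 10.91 in Cis 12 h to 11.31 in Cis/TM 24 h, against 11.18 in Control, and the smallest range of the 10 genes over all arrays, 0.59, against 0.80 for WAPL, 0.90 for SMC3 and 1.13 for SMC1A. SMC3, the subunit that is acetylated, averaged 11.23 with Cis/TM 24 h, 10.74 with Cis/TM 12 h, 11.17 with Cis 24 h, 10.54 with Cis 12 h, 10.91 with TM 24 h and 10.87 with TM 12 h, against 10.90 in Control. SMC1A, its partner in the ring, averaged 9.62 with Cis/TM 24 h, 9.26 with Cis/TM 12 h, 9.70 with Cis 24 h, 8.94 with Cis 12 h, 9.19 with TM 24 h and 9.13 with TM 12 h, against 9.15 in Control. None of these 3 genes passed the fold limit against Control in any group, and SMC1A in Cis 24 h came nearest, at 0.56 (standard error 0.12), 1.47-fold higher. All 3 had their lowest mean in Cis 12 h, as had STAG1, STAG2, PDS5A, PDS5B and WAPL. Their differences from Control there were −0.36 for SMC3, −0.27 for RAD21 (standard error 0.09 each) and −0.21 for SMC1A (standard error 0.12). The Cis 12 h arrays of SMC3 and RAD21 lay below all Control arrays, and those of SMC1A overlapped them.

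ESCO2, the acetyltransferase of S phase, was the only other gene called higher. It had 8.04, 8.01 and 8.28 with Cis/TM 24 h, 7.33, 7.41 and 7.55 with Cis/TM 12 h, 8.07, 7.99 and 8.20 with Cis 24 h and 7.02, 7.22 and 7.34 with Cis 12 h. It had 7.14, 7.36 and 7.41 in TM 24 h and 7.43 and 7.36 in TM 12 h, against 7.10, 6.84 and 7.33 in Control. The 6 arrays with cisplatin for 24 h lay above all 14 others. The difference from Control was 1.02 for Cis/TM 24 h and 0.9995 for Cis 24 h (standard error 0.13 each), and 0.34 for Cis/TM 12 h, 0.10 for Cis 12 h, 0.21 for TM 24 h and 0.31 for TM 12 h.

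Counted together against Control, 2 of the 10 genes were called higher with Cis/TM 24 h (4.54% of all genes), 1 with Cis/TM 12 h (15.2%), 2 with Cis 24 h (11.5%), 1 with Cis 12 h (14.8%), 1 with TM 24 h (5.16%) and 1 with TM 12 h (8.99%). The genes called lower were 1 with Cis/TM 24 h (2.48% of all genes), 4 with Cis/TM 12 h (8.55%), 1 with Cis 24 h (4.9%), 4 with Cis 12 h (10.8%) and 0 with TM 24 h (2.55%) and TM 12 h (3.11%). The median difference over the 10 genes was −0.24 in Cis/TM 12 h, against −0.05 over all genes, and −0.47 in Cis 12 h, against −0.01 over all genes. Since the genes were selected with these values known, nothing follows from the counts about cohesin as a set.

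**Figure D3:**
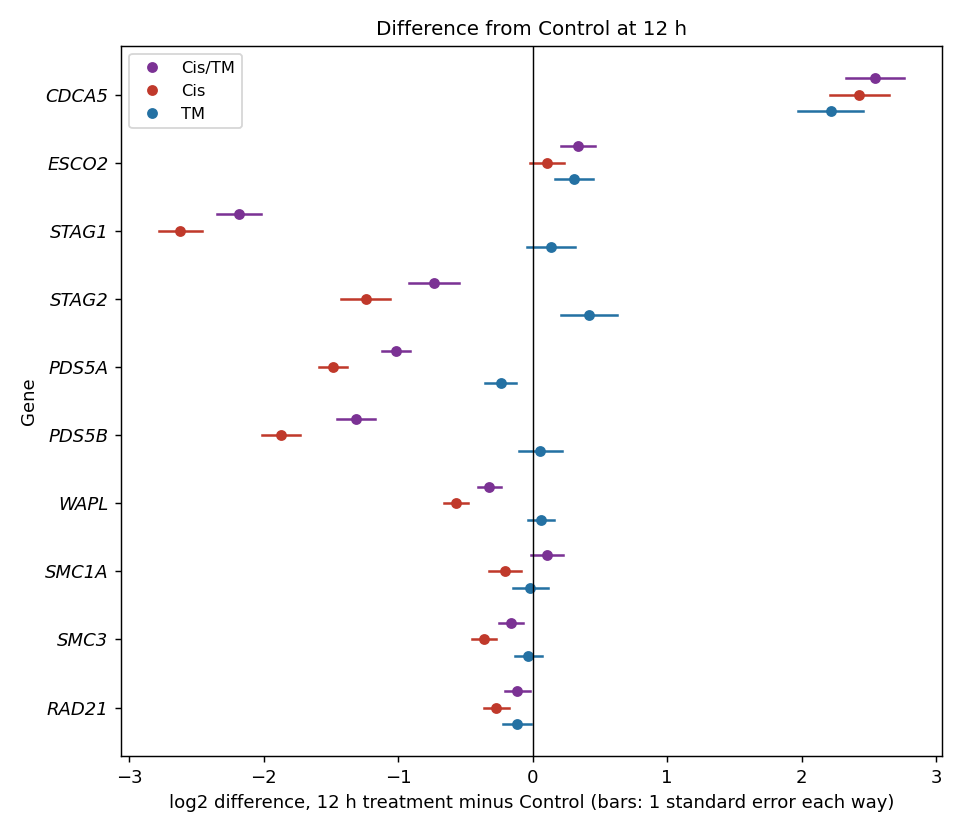
Log2 difference from Control at 12 h (horizontal axis, bars of 1 standard error each way) for the 10 genes (rows) in Cis/TM, Cis and TM (colours). CDCA5 lies above 2.2 in all 3, while STAG1 lies at −2.18 in Cis/TM and −2.62 in Cis but at 0.14 in TM.

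The drugs were also compared with each other, which leaves out Control and so does not show a gene that both move alike. At 12 h, 5 of the 10 genes were lower in Cis than in TM (10.3% of all genes called lower): STAG1 by −2.76 (standard error 0.18, adjusted p = 1.22e-09), PDS5B by −1.92 (standard error 0.16, adjusted p = 2.03e-08), STAG2 by −1.66 (standard error 0.21, adjusted p = 3.56e-06), PDS5A by −1.25 (standard error 0.12, adjusted p = 1.02e-07) and WAPL by −0.63 (standard error 0.10, adjusted p = 4.66e-05). Without Cis 12 h A the WAPL difference was −0.57, under the fold limit, with an adjusted p of 0.000201, and the other 4 stayed called. In Cis/TM against TM the first 4 were again lower (6.98% of all genes), STAG1 by −2.32, PDS5B by −1.37, STAG2 by −1.15 and PDS5A by −0.78, with adjusted p from 1.44e-08 to 0.000307.

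At 24 h fewer of them differed. STAG1 was lower in Cis than in TM by −1.27 (standard error 0.16, adjusted p = 1.23e-05), the 1 gene of 10 called lower (3.23% of all genes), and ESCO2 was higher by 0.79 (standard error 0.13, adjusted p = 0.00016), which with CDCA5 makes 2 called higher (5.32%). In Cis/TM against TM, ESCO2 was higher by 0.81 (adjusted p = 0.000187; 3.53% of all genes called higher) and STAG1 lower by −0.77 (standard error 0.16, adjusted p = 0.00249; 2.75% called lower). PDS5A and PDS5B were at −0.16 (95% interval −0.38 to 0.06) and −0.31 (−0.61 to −0.02) in Cis against TM, with adjusted p of 0.347 and 0.149.

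The comparison of Cis/TM with Cis shows what TM added to cisplatin. At 12 h, limma called 0 of the 10 genes in Cis/TM against Cis and 0% of all genes, while 7 of the 10 had an unadjusted p under 0.05 and so had 1732 of all genes. All 10 differences were positive, from 0.12 for CDCA5 to 0.55 for PDS5B (95% interval 0.26 to 0.85, adjusted p = 0.286), and the smallest adjusted p was 0.263 for PDS5A (0.46, 95% interval 0.25 to 0.68). These differences rest in part on Cis 12 h A, the lowest array of STAG1, STAG2, PDS5A and PDS5B. Without it none was called, and the differences lay between 0.00028 for CDCA5 and 0.34 for PDS5A, with 0.33 for PDS5B, 0.20 for STAG2 and 0.18 for STAG1. At 24 h, CDCA5 was the only one of the 10 called (1.05% of all genes called lower), and STAG1 was at 0.50 (95% interval 0.16 to 0.83, adjusted p = 0.0896).

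Between the times, the treatments parted. In Cis, 7 of the 10 genes were higher at 24 h than at 12 h (7.21% of all genes): PDS5B by 1.53, STAG2 by 1.45, STAG1 by 1.44, PDS5A by 1.15, ESCO2 by 0.90, SMC1A by 0.76 and SMC3 by 0.63, with adjusted p from 2.98e-07 to 8.15e-05. SMC3 dropped under the fold limit without Cis 12 h A, at 0.57. WAPL was at 0.46 (adjusted p = 0.000541) and RAD21 at 0.26 (adjusted p = 0.0494), both under the fold limit. CDCA5, at −0.08, was the only one of the 10 with a negative difference.

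In Cis/TM, 5 were higher at 24 h (5.67% of all genes), STAG1 by 1.499, PDS5B by 1.37, STAG2 by 1.02, PDS5A by 0.91 and ESCO2 by 0.68, with adjusted p from 8.54e-07 to 0.00034, and CDCA5 was the 1 called lower (8.07%). In TM alone, limma called 0 of the 10 genes between the times and 0.00543% of all genes, and 1 of the 10 (CDCA5) had an unadjusted p under 0.05, as had 1068 of all genes. Apart from CDCA5, the TM differences lay between −0.09 and 0.06, with 95% intervals within −0.45 and 0.41.

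**Figure D4:**
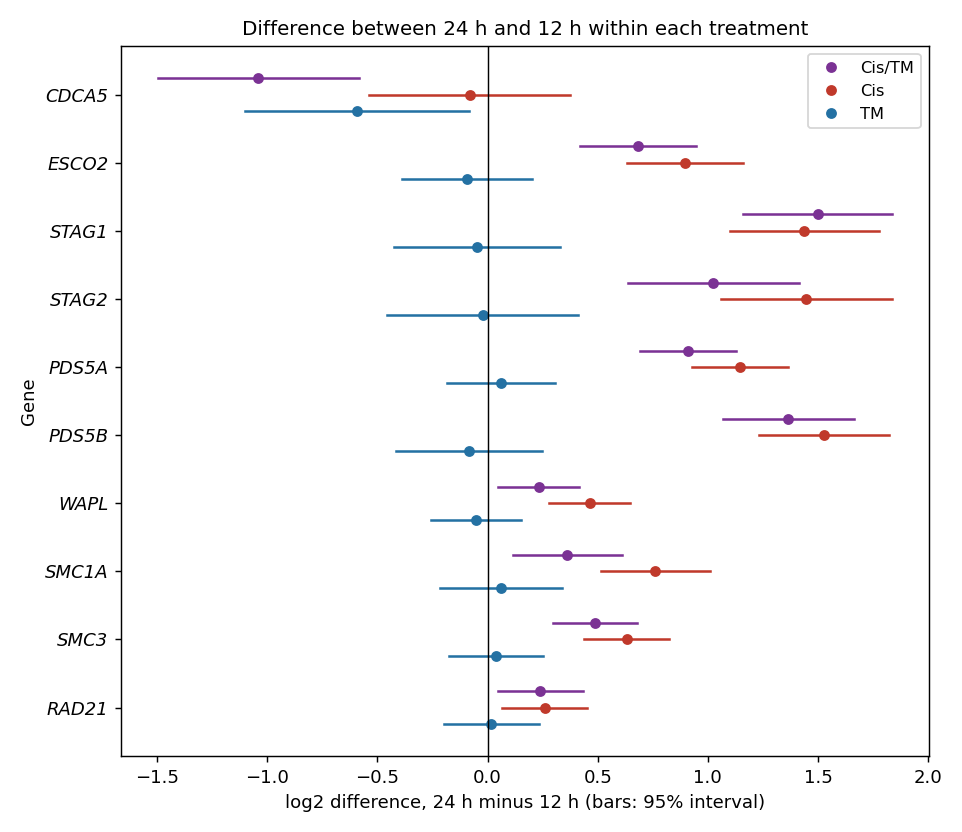
Log2 difference between 24 h and 12 h (horizontal axis, bars of the 95% interval) for the 10 genes (rows) in Cis/TM, Cis and TM (colours). STAG1, STAG2, PDS5A, PDS5B and ESCO2 lie between 0.68 and 1.53 with cisplatin and between −0.09 and 0.06 in TM, and CDCA5 lies at −1.04 in Cis/TM.

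The differences between time courses were tested themselves. The time course of Cis exceeded that of TM for 7 of the 10 genes (7.75% of all genes), by 1.61 for PDS5B, 1.49 for STAG1, 1.47 for STAG2, 1.09 for PDS5A, 0.99 for ESCO2, 0.70 for SMC1A and 0.59 for SMC3, with adjusted p from 0.000117 to 0.0128. SMC1A lost the call without Cis 12 h A (0.58) or TM 12 h A (0.67, adjusted p = 0.0733), and SMC3 without Cis 24 h C (0.57), Cis 12 h A (0.53), TM 24 h A (0.55) or TM 12 h A (0.57, adjusted p = 0.0505). The time course of Cis/TM exceeded that of TM for 5 (5.35%), by 1.55 for STAG1, 1.45 for PDS5B, 1.05 for STAG2, 0.85 for PDS5A and 0.78 for ESCO2, with adjusted p from 0.000231 to 0.0178. Without TM 12 h A, which leaves that group 1 array, STAG2 and ESCO2 were no longer called, and 3 remained.

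The time courses of Cis/TM and Cis were not told apart for any of the 10 genes (0.0434% of all genes called), with 2 of the 10 at an unadjusted p under 0.05, against 2119 of all genes. The departure from additive drug effects holds the Control values, so it has no test for the other 9 genes either. It lay between −0.07 (ESCO2) and 0.70 (PDS5A, standard error 0.16) at 12 h, and between −0.31 (STAG2) and 0.42 (PDS5B, standard error 0.20) at 24 h. Without Cis 12 h A, the values at 12 h were 0.58 for PDS5A, 0.27 for PDS5B, 0.04 for STAG1 and −0.22 for STAG2.

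The genes with the lowest differences from Control in Cis 12 h are also those of the longest span, from first to last base of the gene. In RefSeq, STAG1 spans 416 kb, PDS5B 192 kb, PDS5A 155 kb, STAG2 142 kb, WAPL 86.5 kb, SMC1A 48.6 kb, ESCO2 47.7 kb, SMC3 38.4 kb, RAD21 28.8 kb and CDCA5 22.9 kb. Across the 10 genes, Spearman's rank correlation between span and the difference from Control was −0.77 for Cis/TM 24 h, −0.90 for Cis/TM 12 h, −0.82 for Cis 24 h and −0.90 for Cis 12 h, but −0.20 for TM 24 h and −0.07 for TM 12 h. The genes share their arrays and are not independent points. Without CDCA5 the rank correlation was −0.68 for Cis/TM 24 h, −0.87 for Cis/TM 12 h, −0.75 for Cis 24 h and −0.87 for Cis 12 h. Under TM it was then positive, 0.10 at 24 h and 0.28 at 12 h. Across 18389 genes the rank correlation of span with the difference was −0.10 for Cis/TM 24 h, −0.31 for Cis/TM 12 h, −0.19 for Cis 24 h, −0.39 for Cis 12 h, −0.07 for TM 24 h and −0.01 for TM 12 h. With mean level in place of span it was 0.44 for Cis/TM 24 h, 0.36 for Cis/TM 12 h and 0.45 for Cis 24 h. For Cis 12 h it was 0.23, for TM 24 h 0.36 and for TM 12 h 0.50. Of the 3120 genes over 100 kb, a limit set after the values were seen, 38.9% were called lower in Cis 12 h, against 5.02% of the 15269 shorter ones, and 4.01% against 2.93% in TM 12 h. In Cis/TM 12 h the shares were 33% against 3.52%. At 24 h the shares were 9.01% against 1.14% in Cis/TM, 18.8% against 2.04% in Cis and 3.81% against 2.29% in TM. The 4 cohesin genes called lower in Cis 12 h are the 4 of the 10 over 100 kb. The part of span in these differences was not tested.

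**Figure D5:**
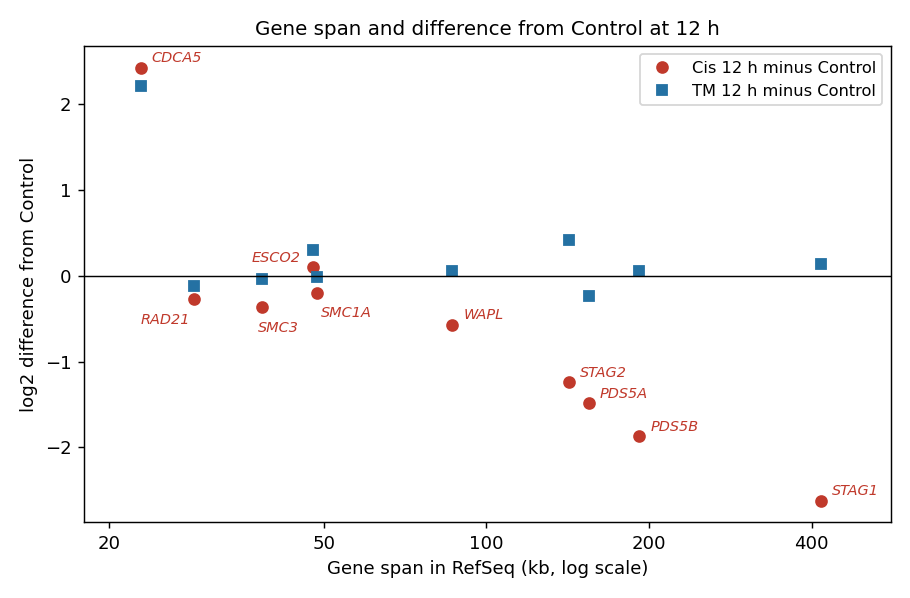
Log2 difference from Control at 12 h (vertical axis) against gene span in kb (horizontal axis, log scale) for the 10 genes in Cis 12 h (red circles, named) and TM 12 h (blue squares). In Cis 12 h the 4 genes over 100 kb lie between −1.24 and −2.62, and in TM 12 h between −0.24 and 0.42.

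Other genes of the pathway, counted by lists, included few that behaved like CDCA5. The lists were chosen with earlier results of these data known, so p-values of list genes against Control are descriptions and no independent evidence. NIPBL, which loads cohesin, fell by 1.05 with Cis/TM 12 h (adjusted p = 4.3e-07) and by 1.46 with Cis 12 h (adjusted p = 5.4e-09), standard error 0.12 each, and was not called in the other 4 groups. Its partner MAU2 was called in none. ESCO1, the other SMC3 acetyltransferase, was at −0.60 in Cis/TM 12 h (adjusted p = 0.00069) and −1.08 in Cis 12 h (adjusted p = 8e-07). HDAC8, the SMC3 deacetylase, was called lower in Cis 12 h alone, at −0.73 (adjusted p = 0.00054). None of the 4 germline subunits STAG3, REC8, SMC1B and RAD21L1 was called in any group.

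Of 6 measured genes of cohesion during replication, 2 rose with Cis/TM 24 h (4.54% of all genes called higher) and 2 with Cis/TM 12 h (15.2%). With Cis 24 h 3 rose (11.5%), with Cis 12 h 1 (14.8%) and under TM none (5.16% at 24 h and 8.99% at 12 h), and none fell. TIMELESS, of the fork protection complex, rose by 1.01 in Cis/TM 24 h and 1.24 in Cis 24 h (adjusted p = 3.6e-05 and 8.9e-07), and DSCC1, of the cohesion clamp loader, rose in both as well (adjusted p = 4.2e-05 and 2.4e-05), by 0.93 in Cis 24 h. CHTF8, also of that loader, rose by 1.17 in Cis/TM 12 h, 0.82 in Cis 24 h and 1.24 in Cis 12 h.

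Of 13 genes that protect or release cohesion in mitosis, AURKB, the kinase of the chromosomal passenger complex, and HASPIN, which phosphorylates histone H3 at centromeres, rose in all 6 comparisons, AURKB by 0.92 to 1.37 and HASPIN by 0.77 to 1.17. BUB1, a checkpoint kinase, fell by 0.78 in Cis/TM 12 h and by 1.18 in Cis 12 h. SGO2, a shugoshin, fell by 0.74 in Cis/TM 12 h, by 1.12 in Cis 12 h and by 0.63 in TM 12 h. ESPL1, which encodes separase, rose by 0.60 in Cis/TM 12 h, 0.95 in Cis 24 h and 0.82 in TM 12 h. In all, 2 rose and 1 fell in Cis/TM 24 h (4.54% and 2.48% of all genes), and 4 rose and 2 fell in Cis/TM 12 h (15.2% and 8.55%). In Cis 24 h 4 rose and 0 fell (11.5% and 4.9%), and in Cis 12 h 2 rose and 2 fell (14.8% and 10.8%). In TM 24 h 2 rose and 0 fell (5.16% and 2.55%), and in TM 12 h 3 rose and 1 fell (8.99% and 3.11%).

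Condensin and SMC5/6 are the related SMC complexes. Of 8 condensin genes, SMC4 fell by 0.87 in Cis/TM 12 h and by 1.05 in Cis 12 h, NCAPD3 rose by 0.62 in Cis/TM 24 h, and NCAPH and NCAPG2 rose by 0.69 and 0.60 in Cis 24 h. Of 7 SMC5/6 genes, NSMCE2, a SUMO ligase, fell by 1.17 in Cis/TM 12 h and by 1.64 in Cis 12 h, NSMCE4A fell by 0.72 in Cis 12 h, and NSMCE1 rose by 0.69 in TM 12 h. Among 6 other genes named as cell division cycle associated, CDCA8 rose by 0.66 in Cis/TM 12 h and 0.59 in Cis 24 h and CDCA7 fell by 0.67 in Cis 12 h, and neither was called in all 6 comparisons as CDCA5 was.

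Markers of cell cycle phases moved with these genes, and their part in the results was not tested. Of 9 G1/S genes, 7 were higher with Cis/TM 24 h (4.54% of all genes), 6 with Cis/TM 12 h (15.2%) and 9 with Cis 24 h (11.5%). With Cis 12 h 7 were higher (14.8%), with TM 24 h 4 (5.16%) and with TM 12 h 4 (8.99%), and none was lower. Their mean log2 value per array ranged from 8.40 to 8.51 in Cis/TM 24 h, 8.61 to 8.78 in Cis/TM 12 h, 8.67 to 8.82 in Cis 24 h, 8.58 to 8.66 in Cis 12 h, 8.23 to 8.38 in TM 24 h and 8.35 to 8.40 in TM 12 h, against 7.70 to 7.77 in Control. Of 12 G2/M genes, 6 were lower in Cis/TM 12 h (8.55% of all genes) and 7 in Cis 12 h (10.8%), among them BUB1B, CENPE, CENPF and TOP2A. In Cis/TM 24 h, 1 was higher (4.54%) and 1 lower (2.48%), and in Cis 24 h 1 was higher (11.5%) and 1 lower (4.9%). In TM 24 h none was called (5.16% of all genes higher and 2.55% lower), and in TM 12 h 1 was higher (8.99%). Their mean was 9.43 to 9.48 in Cis/TM 12 h and 9.03 to 9.33 in Cis 12 h, against 9.90 to 10.13 in Control, and 9.76 or more on every array of the other 4 treated groups.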

How the data were processed

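RNA of MDA-MB-231 cells was measured on 20 Affymetrix Human Gene 1.0 ST arrays. The authors background-corrected, normalized and summarized the probes with RMA, and the deposited log2 values were used unchanged; RMA compresses differences at low signal. For RNA isolation the labels give Trizol but the study's methods an RNeasy kit. Of 33297 transcript clusters, 21214 had a symbol and 19460 a single one, and the cluster of highest mean stood for each of 18417 genes. One linear model with 7 groups was fitted with limma 3.58.1 in R 4.3.3 (13 residual degrees of freedom), with Benjamini-Hochberg adjustment over all genes. The threshold was an adjusted p under 0.05 and a fold over 1.5. The genes and lists were chosen with earlier results of these data known. All 10 cohesin genes, the 10 genes most like CDCA5, its 3 nearest genes on each side and some of the called genes of the lists were considered for naming. Residuals of arrays with the same replicate letter had a median r of 0.0083 over 57 pairs (range −0.42 to 0.61). Those with other letters had 0.0035 over 114 pairs (range −0.49 to 0.46). The letters were not used as pairs, though in groups this small the median cannot exclude a pairing of some arrays. The number of arrays limits the precision, with a median standard error of 0.135, and 0.151 with TM 12 h. Scaling, trend with level, filter, choice of cluster, arrays fitted, replicate block and threshold were varied. The procedure was tested on simulated data.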

Additional observations from a re-analysis of the deposited data

Results flagged for a closer look

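The differences below were found by a test of the difference between effects (limma, adjusted over 18417 genes). The time course of Cis/TM exceeded that of TM by 1.55 for STAG1, 1.05 for STAG2, 0.85 for PDS5A, 1.45 for PDS5B and 0.78 for ESCO2. The time course of Cis exceeded that of TM by 0.70 for SMC1A, 0.59 for SMC3, 1.49 for STAG1, 1.47 for STAG2, 1.09 for PDS5A, 1.61 for PDS5B and 0.99 for ESCO2. No group had more than 3 arrays, so single arrays were not tested as outliers.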

How the results depend on the processing

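Over 200 log2 differences and 29 alternatives, no called value changed sign, 39 values lost the call and 10 gained one. Of the departures from additive effects, which have no test, 24 moved by more than the spread between arrays, and the other 5727 values stayed within it or kept their side of the threshold. The replicate block changed no call. Between Cis/TM and Cis at 24 h, 1 gene was called, and 0 after median centring, quantile normalization or removal of the trend with level (0 to 1 when arrays were left out in turn). At an unadjusted p, 1 gene was called between TM 24 h and TM 12 h and 1 between the time courses of Cis/TM and Cis, where 0 had been. Cis 12 h A and TM 24 h A were also left out together, a choice made after the data were seen, which cost 5 calls, among them the CDCA5 difference between Cis and TM at 24 h (0.61). The time course of Cis/TM against that of TM gave 3 to 5 when arrays were left out in turn. The CDCA5 difference between Cis and TM at 24 h, 0.73, was 0.63 after quantile normalization and 0.58 after removal of the trend, and was called in neither. Genes with an r with CDCA5 over 0.9 numbered 364, 473 by Spearman's rank correlation, 1065 over the 7 group means and 182 over the 17 treated arrays (chosen after the data were seen). The number of arrays, and a Control without a time, limit all comparisons.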
